A study of Mus musculus with 14 samples.

Results

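A set of 110 genes was chosen by its late signal in ageing hematopoietic stem cells (HSC), out of 12393 genes that the array reads with a probe set of 1 gene symbol. A gene entered the set when the lower of the 2 wild-type (WT) HSC arrays at 21 mo exceeded the highest of the 6 WT HSC arrays at 2, 6 and 12 mo by at least 0.7 on the log2 scale (the gap) and its mean at 21 mo reached 6, and each gene kept the probe set with the largest gap. The age pattern of these genes was therefore selected on, and its values are a description with no test. In all, 129 probe sets met both conditions, of which 113 carried 1 symbol, 7 several and 9 none. Another 50 genes had the gap but a mean under 6 at 21 mo, and the same rule turned round gave 107 genes lower at 21 mo. Over all 22626 probe sets, 7.34% had both 21-mo arrays above all 6 younger ones. The members just inside the gap were Tmx1 (0.70), Lmo4 (0.701) and Clec7a (0.708), and the genes just outside were Vldlr (0.69998), Dnajc3 (0.69996) and Bmp4 (0.694).

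HSC came from the marrow of male C57Bl/6 mice and were sorted as side population cells, which pump out the dye Hoechst, that carried c-Kit and Sca-1 and lacked lineage markers. WT HSC were taken at 2, 6, 12 and 21 mo. At 12 mo, HSC were also taken from p53+/m mice, which carry 1 truncated p53 allele that augments p53 activity and age early, and from p53+/- mice, which have 1 functional copy. The paper states that the p53 mice had been back-crossed onto C57Bl/6 for several generations, so any remaining strain background cannot be told apart from genotype. Whole bone marrow (WBM) came from WT mice at 2 mo. Each of the 7 groups had 2 arrays, A and B, 14 in all, and the cells of 2 to 5 mice were pooled for an HSC array, whose RNA passed through 2 rounds of amplification, so p-values measure the spread between such pools. One label field gives 2 mo for every sample, and the ages used here are those of the sample titles. Levels are log2 values, and a step of 1 is a 2-fold difference. In bulk RNA, fewer cells of a type and less RNA per cell cannot be told apart.

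HSC sustain blood formation for life by dividing rarely and giving rise to progenitors of the myeloid, lymphoid, erythroid and megakaryocytic lineages. In old mice the HSC compartment is known to be enlarged and biased towards myeloid output, while each cell repopulates marrow less well. Mature myeloid cells are marked by pattern recognition receptors, chemokines, granule proteins and pore-forming defence proteins, whereas HSC are marked by adhesion molecules and growth regulators of their niche. The protein C receptor gene Procr, an HSC marker, read between 12.78 and 14.09 on the 12 HSC arrays and 4.41 and 4.14 in WBM, and the summed level of 11 HSC markers (log2 of the sum) in WT HSC aged 2, 6, 12 and 21 mo was 13.98 to 14.17, 14.09 to 14.44, 14.12 to 14.93 and 14.83 to 15.05, against 12.93 to 13.04 in WBM.

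The 5′ control for 18S ribosomal RNA was low on the 21-mo arrays and on array 12 mo A. In WT HSC the control read 10.9 on both 2-mo arrays and 11.2 and 8.28 at 6 mo. At 12 mo array A read 4.66 and array B 9.68, and the 21-mo arrays read 4.84 and 5.44. A probe set in the middle of the 18S RNA was low on 6 mo B as well (5.46). The 5′ control read 5.71 and 7.18 in p53+/m HSC, 8.92 and 7.96 in p53+/- HSC, and 5.32 and 5.14 in WBM. Array 12 mo A was the highest of the 6 younger arrays for 66 of the 110 genes, 6 mo A, where the control was highest, for 21, and 6 mo B for 9. Without 12 mo A 698 genes would have met the rule. The part of what the 18S control reads in the results was not tested.

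Promoters of 4 members are shown because their genes were lower in p53 HSC than in WBM, as described further on, and their windows hold the ETS core GAGGAA, read by the ETS family that includes the myeloid regulator PU.1; they were picked after the matches were seen. Each stretch holds the 150 bases before the start of the gene, 5′ to 3′ along the gene, from RefSeq on GRCm38.p6, with the core in capitals.
F13a1 (chr13:37050245-37050394, minus strand): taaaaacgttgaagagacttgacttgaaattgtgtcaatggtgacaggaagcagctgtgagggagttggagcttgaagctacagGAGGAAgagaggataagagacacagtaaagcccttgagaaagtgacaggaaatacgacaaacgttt
Ms4a4b (chr19:11443408-11443557, plus strand): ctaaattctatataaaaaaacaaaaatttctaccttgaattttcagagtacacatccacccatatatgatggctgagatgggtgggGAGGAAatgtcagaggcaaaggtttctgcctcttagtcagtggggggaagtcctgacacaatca
Ms4a4c (chr19:11407511-11407660, plus strand): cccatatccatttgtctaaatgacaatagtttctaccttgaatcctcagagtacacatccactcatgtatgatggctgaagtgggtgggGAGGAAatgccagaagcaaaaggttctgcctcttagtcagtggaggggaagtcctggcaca
Clec7a (chr6:129472780-129472929, minus strand): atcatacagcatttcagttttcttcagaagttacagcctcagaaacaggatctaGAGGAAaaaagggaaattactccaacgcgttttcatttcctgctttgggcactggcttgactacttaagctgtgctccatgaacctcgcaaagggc
The core starts 66 bases before the start in F13a1, 64 in Ms4a4b, 61 in Ms4a4c and 96 in Clec7a. Aligned on it without gaps, Ms4a4b and Ms4a4c share 95 of 106 bases, or 89.6%, and the genes lie 16312 bases apart on chromosome 19. Of the 110 members, 85 matched RefSeq promoters, with 106 windows that run from 250 bases before to 50 after a start. GAGGAA on either strand was in 31.1% of these windows, against 27.2% of the windows of genes on the array and 28.3% of all 32851 promoter windows. Among members that were lower in p53 HSC than in WBM it was in 18 of 43 windows (41.9%), which belong to 35 genes, 16 of them with a match. Among those higher in p53 HSC it was in 3 of 12 windows (25%), and among those not called in 12 of 51 (23.5%). The GC box GGGCGG was in 64.2% of the members' windows, against 55.4% for genes on the array and 35.7% for all windows. The AP-1 site TGANTCA was in 1.89%, against 6.45% and 7.81%. Both were searched on both strands. A match of letters is a description of these windows and was not tested as a binding site.

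In WT HSC aged 2, 6, 12 and 21 mo the median level of the 110 genes was 5.43, 6.11, 6.27 and 8.26. The gap ran between 0.70 and 3.11, with a median of 1.05, and the difference between the 21-mo and 12-mo means had a median of 1.89. Only part of the set was flat before 21 mo: the 12-mo mean lay within 0.5 of the 2-mo mean for 40 genes, 0.5 to 1 above it for 29, at least 1 above it for 40 and more than 0.5 below it for 1. The median step from 2 to 12 mo was 0.69, against 0.00 over all 20380 probe sets with 1 symbol. For 15 genes more than 50% of the difference between 2 and 21 mo was present at 12 mo, led by Ripk4 (74.7%), Plscr2 (72.2%) and Tm4sf1 (69.3%). The set is thus better named by its highest level at 21 mo than by a rise at that age alone.

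The pair of 12-mo arrays did not read these genes alike. Array 12 mo A was above 12 mo B for 84 genes, by 1 or more for 41, with a median difference of 0.64, against −0.04 over all probe sets with 1 symbol. On 12 mo B alone 22 genes stood at least 1 above the 2-mo mean, and on 12 mo A alone 58. The 2 arrays at 21 mo differed by a median of 0.22. In 17 genes all 6 younger arrays read under 5 on the chosen probe set, the level used here as a mark of weak signal.

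**Figure D1:**
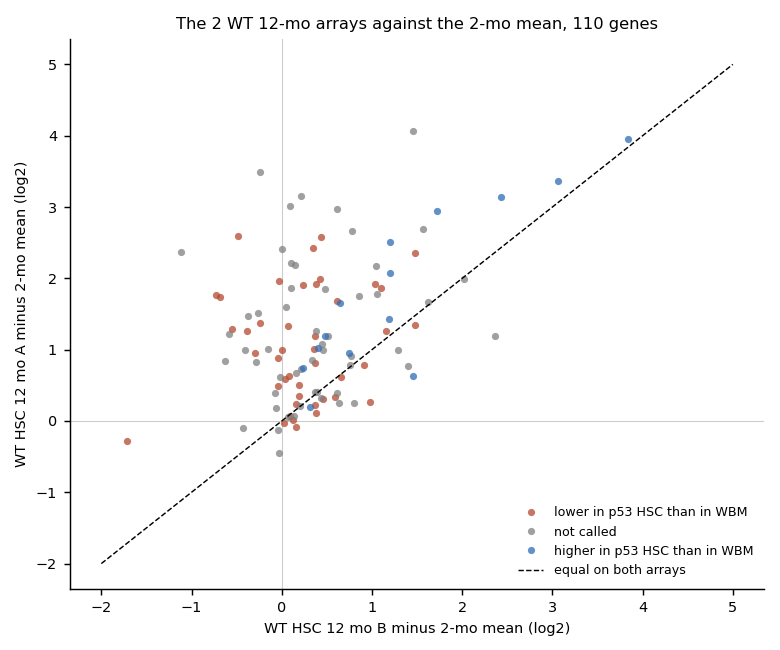
Log2 level on WT array 12 mo A (vertical axis) and 12 mo B (horizontal axis), each minus the 2-mo mean, for the 110 genes, coloured by the contrast of p53 HSC with WBM; the dashed line marks equal values. Most points lie above the line, as 84 genes were higher on 12 mo A.

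Most members have more than 1 probe set. For 86 genes the array held 180 other probe sets, and 3 genes, Spred1, Tmod3 and Alcam, met the rule on another one too. In 66 genes another probe set reached a mean of 6 at 21 mo. For 22 of these every such probe set had both 21-mo arrays above all younger ones, for 27 none had, and for 6 every such probe set was on average lower at 21 mo than at younger ages (Ahcyl1, Ergic2, Ier3ip1, Ppp3r1, Ttc3 and Wnk1). The probe set of 33 members carries a suffix letter, which marks probes shared by transcripts or genes. Without such probe sets 78 genes met the rule.

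A contrast that shares no array with the rule set the 4 arrays of 12-mo p53 HSC (the mean of p53+/m and p53+/-) against the 2 arrays of 2-mo WBM. It sets the level of these genes in HSC beside that in the marrow as a whole, and it differs in cell type, age and genotype at once, which cannot be told apart. With limma, 43 members were lower in p53 HSC than in WBM (39.1%), 14 were higher (12.7%) and 53 were not called, at an adjusted p under 0.05 and 2-fold. Over all probe sets 11.1% were lower and 11.1% higher, and over the 8564 with a mean of 6 or more at 21 mo 17% were lower and 25% higher. The median difference of the members was −0.78, against −0.02 over all probe sets and 0.15 over those of that level. The rule takes genes whose level up to 12 mo is low for their level at 21 mo, so neither background is matched to them on the 12-mo level. At an unadjusted p under 0.05 and 2-fold, 49 were lower and 17 higher, with no share of all probe sets computed at that threshold. Where the lower side of this contrast read under 5, near the lowest values of the array, the fitted difference is a lower limit, its SE does not cover that limit, and no order among such genes is drawn from it.

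**Figure D2:**
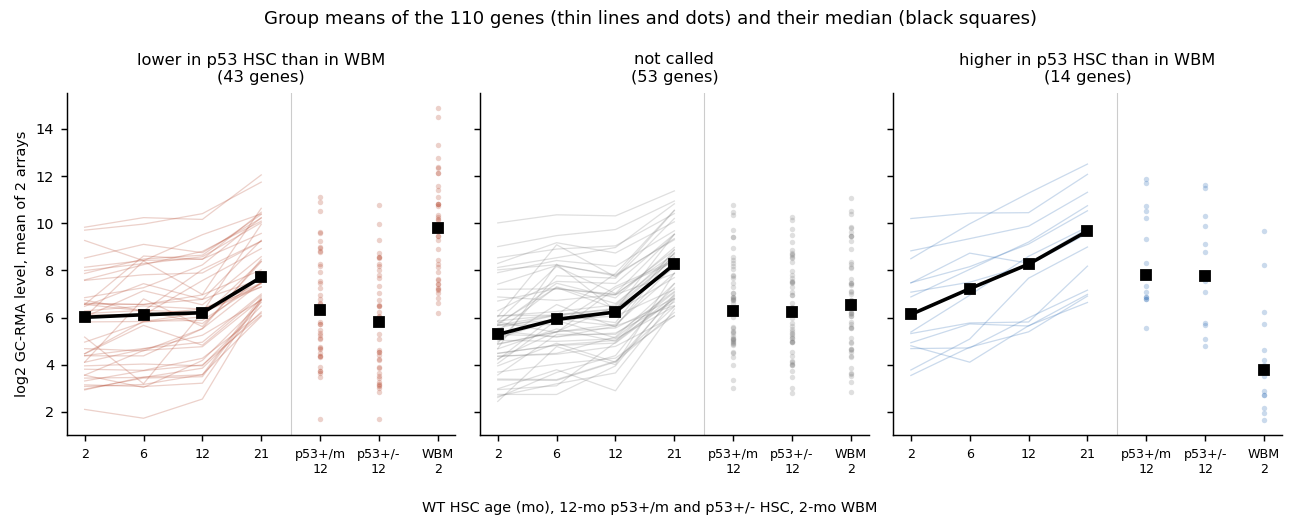
Log2 level (mean of 2 arrays) of the 110 genes in WT HSC at 2, 6, 12 and 21 mo, in 12-mo p53+/m and p53+/- HSC and in 2-mo WBM, split by the contrast of p53 HSC with WBM; thin lines and dots are genes, black squares medians. The 43 genes lower in p53 HSC have medians of 6.01, 6.12, 6.20 and 7.71 across the ages and 9.81 in WBM, and the 14 genes higher have 6.13, 7.22, 8.26 and 9.67, and 3.75 in WBM.

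Of the genes lower in p53 HSC than in WBM, Lcn2, Chil3, Ly86, Mpeg1 and F13a1 are described first, as the named-gene rule took them, with no rank among them. Lcn2, which encodes a neutrophil lipocalin that binds bacterial siderophores, read 4.21 and 2.90 at 2 mo, 3.03 and 3.04 at 6 mo, 3.83 and 4.53 at 12 mo, and 7.10 and 6.18 at 21 mo. It read 2.92 and 4.38 in p53+/m HSC, 2.83 and 2.87 in p53+/- HSC and 13.24 and 13.40 in WBM, a difference of −10.07 (SE 0.45, adjusted p = 0.000549). Chil3, a chitinase-like protein of myeloid cells, read 5.99 and 4.35 at 2 mo, 2.67 and 3.71 at 6 mo, 7.76 and 4.68 at 12 mo, and 9.59 and 10.32 at 21 mo. It read 5.42 and 5.50 in p53+/m HSC, 4.08 and 4.38 in p53+/- HSC and 14.86 and 14.89 in WBM (−10.03, SE 0.10, adjusted p = 1.62e-05). In both genes the 21-mo arrays were the highest of the HSC arrays and stayed below both WBM arrays, and for Chil3 the next highest was 12 mo A.

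Macrophage and monocyte genes followed. Ly86 encodes MD-1, the partner of the Toll-like receptor homolog RP105, and it read 2.50 and 1.70 at 2 mo, 1.72 and 1.74 at 6 mo, 3.36 and 1.72 at 12 mo, and 6.30 and 7.13 at 21 mo. All 4 p53 arrays lay between 1.69 and 1.72, near the lowest values of the array, and WBM read 10.79 and 10.86, a fitted difference of −9.12 that is a lower limit in size (adjusted p = 2.48e-06). Mpeg1, the pore-forming protein perforin-2 of phagocytes, read 5.89 and 3.47 at 2 mo, 3.79 and 5.38 at 6 mo, 5.46 and 5.60 at 12 mo, and 8.61 and 8.32 at 21 mo. Its p53 arrays lay between 2.78 and 4.72 and its WBM arrays at 12.20 and 12.10 (−8.37, SE 0.32, adjusted p = 0.000364). F13a1, the A subunit of coagulation factor XIII, which cross-links fibrin, read 2.52 and 3.33 at 2 mo, 3.50 and 3.45 at 6 mo, 3.55 and 3.58 at 12 mo, and 5.72 and 8.02 at 21 mo. In F13a1 the 21-mo arrays lay far apart, and WBM read 12.13 and 12.15 (−8.05, SE 0.11, adjusted p = 3.07e-05).

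Ms4a4c and Ms4a4b, neighbours of the membrane-spanning 4A family of leukocyte surface proteins, had gaps of 3.11 and 2.13. Ms4a4c read 3.17 and 3.11 at 2 mo, 3.11 and 3.03 at 6 mo, 3.15 and 3.27 at 12 mo, and 6.38 and 7.18 at 21 mo, and 10.34 and 10.20 in WBM. Ms4a4b read 4.0 and 3.90 at 2 mo, 3.87 and 4.18 at 6 mo, 3.92 and 3.98 at 12 mo, and 6.66 and 6.31 at 21 mo, and 10.79 and 10.69 in WBM. Both were flat near their lowest reading up to 12 mo. In p53 HSC Ms4a4c read 4.33 on p53+/m A and between 3.12 and 3.17 on the other 3 arrays, and Ms4a4b lay between 3.87 and 3.97 on all 4, and the difference of p53 HSC from WBM was −6.83 in both (SE 0.37 and adjusted p = 0.000869 for Ms4a4c, SE 0.05 and 7.95e-06 for Ms4a4b). The probe set of Ms4a4c is one that can read several transcripts of the family, and signal shared between the genes was not tested.

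Of 54 measured genes for chemokines, cytokines and their receptors, 2 were members. Ccl6, a chemokine of mouse myeloid cells, read 3.09 and 3.06 at 2 mo, 3.02 and 3.30 at 6 mo, 4.07 and 3.08 at 12 mo, and 6.32 and 5.78 at 21 mo. Ccr2, the receptor that draws monocytes out of the marrow, read 3.86 and 3.75 at 2 mo, 3.77 and 3.75 at 6 mo, 4.15 and 4.39 at 12 mo, and 5.42 and 6.95 at 21 mo. Both were close to flat up to 6 mo. The p53 arrays lay between 3.0 and 3.87 for Ccl6 and between 4.15 and 4.48 for Ccr2. In WBM they read 10.77 and 10.90 (Ccl6) and 10.89 and 10.74 (Ccr2). Ccl6 differed by −7.58 (SE 0.24, adjusted p = 0.000235) and Ccr2 by −6.54 (SE 0.10, adjusted p = 4.21e-05). Over the whole list, 6 genes were higher in p53 HSC than in WBM and 17 lower, with a median difference of −0.10, against 1601 higher and 1537 lower of all 12393 genes, with a median of −0.01.

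The inflammatory and Toll-like receptor list gave 3 members of 30 measured: Lcn2, Clec7a and Traf6. Across that list 7 genes were higher in p53 HSC than in WBM and 9 lower, with a median difference of −0.02. Clec7a, the beta-glucan receptor Dectin-1, read 6.11 and 6.07 at 2 mo, 6.11 and 6.10 at 6 mo, 7.96 and 7.18 at 12 mo, and 8.66 and 9.18 at 21 mo. It was thus higher on both 12-mo arrays than on the 4 arrays of 2 and 6 mo, and the p53 arrays lay between 6.95 and 7.29, against 12.77 and 12.77 in WBM (−5.64, SE 0.06, adjusted p = 1.71e-05). Traf6, a ubiquitin ligase that carries signals of Toll-like and interleukin receptors, read 5.68 and 5.66 at 2 mo, 6.09 and 5.73 at 6 mo, 6.08 and 6.04 at 12 mo, and 7.21 and 7.18 at 21 mo, and 5.55 and 5.54 in WBM, and was not called (−0.21, SE 0.41, adjusted p = 0.744). Other members lower in p53 HSC than in WBM, named after their values were seen, were the calcium-binding S100a6 (−3.76), the cytoskeletal adducin Add3 (−5.21), Marcks, a substrate of protein kinase C (−4.99), and the G protein subunit Gng12 (−3.90). Of the 43 genes, 25 read higher on both WBM arrays than on both 21-mo HSC arrays, and 8 lower. As the 43 were picked by their call against WBM and no share over all probe sets was computed, these counts are a description.

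**Figure D3:**
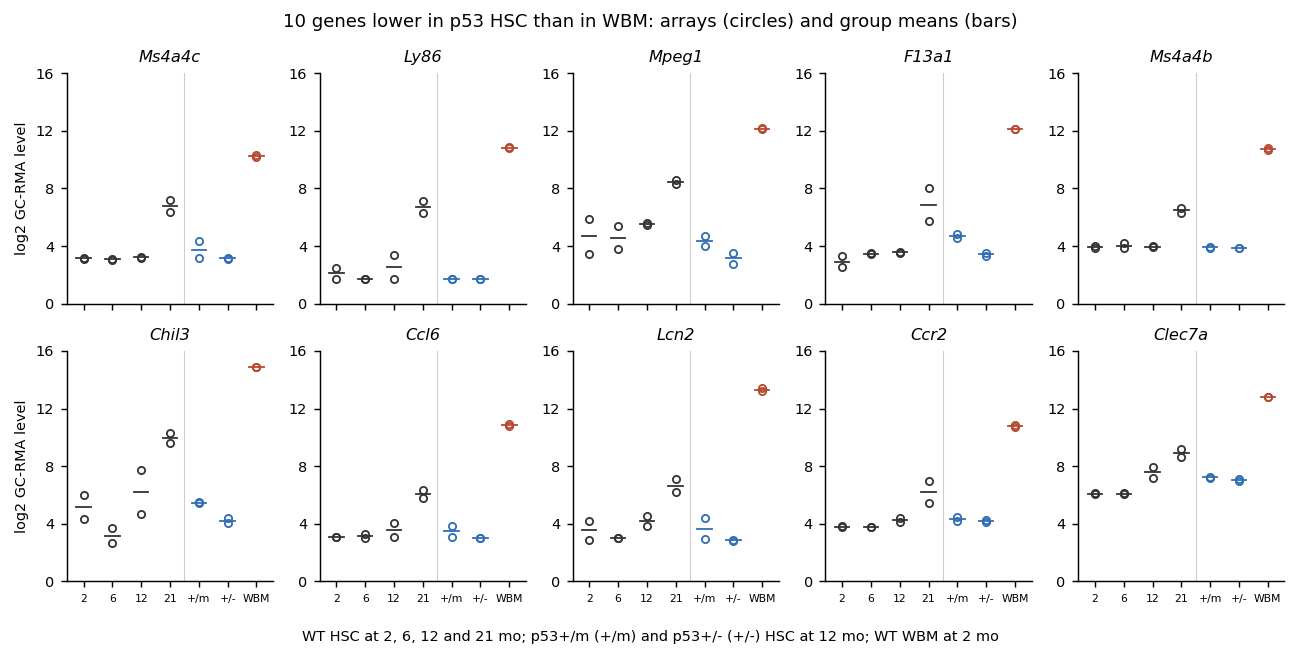
Log2 level of 10 members lower in p53 HSC than in WBM, on each array (circles) with the mean of the 2 arrays of a group (bars). The 21-mo arrays stand above all younger WT HSC arrays and below WBM in every panel.

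Markers of mature cells were set beside these genes. Of 14 neutrophil markers, 2 were members and 6 had both 21-mo arrays above all younger ones; their summed level was 11.68 to 12.41 on the 21-mo arrays and 9.25 to 11.10 on the younger arrays, 9.12 to 10.57 in p53+/m HSC and 8.77 to 9.33 in p53+/- HSC, against 17.65 to 17.73 in WBM. Their means at 21 mo were under 5 for 7 of the 14, among them the elastase gene Elane (2.31 and 2.22), against 2.18 to 2.23 on the younger arrays, and Ctsg (2.96 and 3.76). Of these 7, Mpo (3.83 and 5.58), Mmp8 (3.65 and 3.21) and Cd177 (4.51 and 3.17) stood above all younger arrays, which read at most 3.0, 2.32 and 2.85. The granule gene Ngp did so at a higher level (10.60 and 9.11, against at most 8.88). The stronger markers S100a8 (10.02 and 8.94), S100a9 (9.70 and 7.81), Camp (7.87 and 4.63) and Prtn3 (9.50 and 9.05) did not. The younger arrays reached 9.81, 8.52, 6.58 and 9.31 for them. Ltf and Mmp9, with means under 5, did not stand above all younger arrays either. Of 14 monocyte and macrophage markers, 4 were members (Ccr2, F13a1, Ly86 and Mpeg1) and 7 stood above all younger arrays, with sums of 13.68 to 13.87 on the 21-mo arrays and 12.93 to 13.58 on the younger arrays, 13.26 to 13.50 in p53+/m HSC and 12.57 to 13.31 in p53+/- HSC, against 16.59 to 16.60 in WBM. At 21 mo 5 of these 14 were under 5, among them Ms4a3 (2.39 and 2.41), Fcgr1 (1.95 and 1.96) and Cx3cr1 (3.64 and 3.77), while the receptor gene Csf1r read 4.89 and 5.40, against 2.10 to 3.41 on the younger arrays. The sums of neutrophil and monocyte markers were above all younger arrays at 21 mo, the monocyte sum by a narrow margin (13.68, against at most 13.58). Its strongest gene, Lyz1, read 13.18 and 13.39 at 21 mo, against 12.46 to 13.15 on the younger arrays. Both sums include members, which the rule chose for standing above the younger arrays, and sums without them were not computed. The plasma cell sum was also above by a narrow margin (12.34 to 13.15, against at most 12.32), with 0 of its 6 genes above all younger arrays. The sums of the other 8 marker lists were not above. None of the other 9 marker lists held a member. The part of mature cells among the sorted cells in these values was not tested.

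In the other direction, 14 members were higher in p53 HSC than in WBM, and all 14 also read higher on both 21-mo arrays than in WBM. That count, too, follows a pick by the call against WBM and has no share over all probe sets beside it. Tm4sf1, a tetraspanin-like surface protein, read 8.25 and 8.74 at 2 mo, 10.36 and 9.59 at 6 mo, 11.63 and 10.92 at 12 mo, and 12.35 and 12.67 at 21 mo. It read 11.25 and 12.15 in p53+/m HSC, 11.65 and 11.61 in p53+/- HSC and 1.71 and 1.64 in WBM, near the lowest values of the array, so the fitted difference of 9.99 is a lower limit (adjusted p = 0.000174). Tm4sf1 climbed through every age and its p53 levels were close to those of WT HSC at 12 mo. Hbegf, a heparin-binding growth factor for the epidermal growth factor receptor, read 7.79 and 7.14 at 2 mo, 8.91 and 8.55 at 6 mo, 8.66 and 7.95 at 12 mo, and 9.88 and 9.68 at 21 mo. It read 10.28 and 11.17 in p53+/m HSC, 9.25 and 8.99 in p53+/- HSC and 2.79 and 2.67 in WBM (7.20, SE 0.29, adjusted p = 0.000412), and all 4 p53 arrays were above all 6 younger WT arrays.

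Sult1a1, a sulfotransferase of phenolic compounds, read 6.87 and 6.88 at 2 mo, 8.80 and 7.28 at 6 mo, 9.81 and 8.59 at 12 mo, and 10.79 and 10.69 at 21 mo. It stood at 9.76 and 10.66 in p53+/m HSC, 9.58 and 10.15 in p53+/- HSC and 4.01 and 4.0 in WBM (6.03, SE 0.33, adjusted p = 0.000892). Ripk4, a kinase known from keratinocyte differentiation, read 3.62 and 3.92 at 2 mo, 6.02 and 4.16 at 6 mo, 7.73 and 7.61 at 12 mo, and 8.86 and 9.12 at 21 mo. Its largest step lay between 6 and 12 mo, on both 12-mo arrays, and its p53 arrays, which lay between 7.01 and 9.62, differed from WBM by 5.31 (SE 0.85, adjusted p = 0.0156). Slc45a3, a solute carrier known from human prostate, read 5.04 and 4.57 at 2 mo, 4.56 and 3.65 at 6 mo, 5.76 and 5.55 at 12 mo, and 6.68 and 6.59 at 21 mo, and 6.49 and 7.27 in p53+/m HSC, 7.63 and 7.44 in p53+/- HSC, against 2.25 and 1.66 in WBM (5.25, SE 0.31, adjusted p = 0.00109). Slc45a3 was thus higher in p53+/- HSC than in WT HSC of any age.

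Of 34 measured adhesion genes, 2 were members and both were higher in p53 HSC than in WBM. Over the whole adhesion list 9 genes were higher and 8 lower, with a median difference of −0.02. Itga6, the integrin alpha 6 chain, a laminin receptor used to enrich human HSC, read 9.86 and 10.54 at 2 mo, 10.04 and 10.82 at 6 mo, 10.39 and 10.51 at 12 mo, and 12.01 and 12.14 at 21 mo, and 11.61 and 12.13 in p53+/m HSC, 11.10 and 11.89 in p53+/- HSC, against 9.28 and 10.07 in WBM (2.01, SE 0.38, adjusted p = 0.0245). Alcam (CD166), a cell adhesion molecule of the immunoglobulin family, read 8.79 and 8.86 at 2 mo, 9.45 and 9.24 at 6 mo, 9.47 and 10.28 at 12 mo, and 11.12 and 11.51 at 21 mo, and differed from WBM by 2.20 (SE 0.22, adjusted p = 0.00428). Of the 40 measured growth factor and TGF-beta signaling genes, the members were Hes1 and Ctnnb1. Hes1, the transcriptional repressor induced by Notch, read 3.70 and 3.38 at 2 mo, 4.38 and 5.10 at 6 mo, 6.05 and 4.74 at 12 mo, and 7.03 and 6.79 at 21 mo, and differed by 3.04 (SE 0.15, adjusted p = 0.000653). By the 12-mo mean, more than 50% of the Hes1 difference between 2 and 21 mo was present at 12 mo. That share rests on 12 mo A (6.05), as 12 mo B (4.74) was below 6 mo B (5.10).

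Members not called against WBM included genes with wide gaps. Cavin2, a component of caveolae, read 2.59 and 2.62 at 2 mo, 3.73 and 3.61 at 6 mo, 3.80 and 4.97 at 12 mo, and 7.52 and 7.37 at 21 mo, and 3.06 and 3.51 in WBM (1.34, SE 0.72, adjusted p = 0.306). A stronger Cavin2 probe set had means of 7.57 at 2 mo, 9.35 over the younger ages and 12.26 at 21 mo. On that probe set the gene was thus not weak in young HSC. Tpp2, a large cytosolic peptidase, read 2.43 and 2.45 at 2 mo, 4.73 and 4.81 at 6 mo, 5.46 and 2.54 at 12 mo, and 8.04 and 7.74 at 21 mo. In Tpp2 array 12 mo A was nearest the 6-mo arrays and 12 mo B nearest the 2-mo arrays. Other probe sets of Tpp2 went both ways. Some had lower means at 21 mo (8.61 and 7.56) than at younger ages (9.77 and 8.23). Others had higher means (8.47 and 9.13, against 7.37 and 8.05). Tbc1d15, an activator of Rab GTPase hydrolysis, read 6.34 and 5.02 at 2 mo, 5.90 and 6.32 at 6 mo, 6.52 and 5.05 at 12 mo, and 8.84 and 8.94 at 21 mo. Its other probe sets moved less, with means of 10.64 and 8.49 at 21 mo, against 10.34 and 8.04 at younger ages. Klf6, a zinc-finger factor and the 1 member among 24 immediate early genes, read 5.52 and 4.72 at 2 mo, 6.15 and 5.69 at 6 mo, 5.38 and 5.92 at 12 mo, and 8.32 and 8.20 at 21 mo, and 6.43 and 7.19 in p53+/m HSC, 7.36 and 6.58 in p53+/- HSC, so that all 4 p53 arrays were above all younger WT arrays. Zfx, an X-linked zinc-finger factor required for HSC self-renewal in mice, read 4.27 and 4.44 at 2 mo, 4.51 and 4.45 at 6 mo, 5.62 and 4.74 at 12 mo, and 7.39 and 7.48 at 21 mo. Apart from 12 mo A, its younger arrays lay within a narrow range. Other probe sets of Zfx had means of 7.15, 8.22 and 5.88 at 21 mo, against 6.80, 7.78 and 3.85 at younger ages. Ttc3, a ubiquitin ligase for Akt, read 6.19 and 5.94 at 2 mo, 6.27 and 6.24 at 6 mo, 6.79 and 6.28 at 12 mo, and 8.92 and 8.54 at 21 mo. Its other probe sets with a 21-mo mean of 6 or more were on average lower at 21 mo. Zg16, a lectin of secretory granules, read 3.14 and 3.56 at 2 mo, 3.58 and 3.09 at 6 mo, 4.13 and 4.11 at 12 mo, and 6.29 and 6.14 at 21 mo.

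Tgs1 (which forms the trimethylguanosine cap of small nuclear RNA) read 3.05 and 2.88 at 2 mo, 3.37 and 3.49 at 6 mo, 4.70 and 2.28 at 12 mo, and 6.85 and 6.68 at 21 mo, and was lower in p53 HSC than in WBM (−2.66, SE 0.16, adjusted p = 0.00121). Its other probe sets had means of 10.52, 9.03 and 6.13 at 21 mo, against 9.44, 8.99 and 5.98 at younger ages. Ctnnb1, or beta-catenin, read 2.75 and 2.73 at 2 mo, 2.74 and 2.73 at 6 mo, 5.16 and 2.74 at 12 mo, and 7.14 and 6.85 at 21 mo. On this probe set beta-catenin was at the floor of the array on all younger arrays but 12 mo A, whereas another, stronger probe set had means of 14.31 at 21 mo and 13.25 at younger ages. Atp6v1a, the catalytic subunit of the proton pump of lysosomes and the 1 member among 29 lysosome and autophagy genes, read 8.56 and 8.51 at 2 mo, 8.63 and 9.17 at 6 mo, 8.93 and 9.15 at 12 mo, and 10.44 and 10.38 at 21 mo. Clca3a1, of the chloride channel accessory family and the 1 member among 28 genes for ion transport, read 3.12 and 2.76 at 2 mo, 3.47 and 2.74 at 6 mo, 4.93 and 4.96 at 12 mo, and 6.16 and 7.72 at 21 mo. Another, stronger Clca3a1 probe set had means of 5.55 at 2 mo, 7.81 over the younger ages and 11.19 at 21 mo. Of the genes just inside the gap, Tmx1, a thioredoxin-like protein of the endoplasmic reticulum, read 9.64 and 9.78 at 2 mo, 10.28 and 9.65 at 6 mo, 11.03 and 9.78 at 12 mo, and 11.73 and 11.75 at 21 mo. Its array 12 mo A stood apart from the other younger arrays. Lmo4, a LIM-only adaptor of transcription factors, read 6.53 and 6.94 at 2 mo, 5.97 and 6.59 at 6 mo, 6.46 and 5.03 at 12 mo, and 7.64 and 7.78 at 21 mo. Both were lower in p53 HSC than in WBM (Tmx1 −1.51, SE 0.05, adjusted p = 0.000323; Lmo4 −2.62, SE 0.27, adjusted p = 0.00456).

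A few members that act in membrane traffic are given as values, picked after these were seen. The Rab GTPases Rab6a, Rab10, Rab2a and Rab27b, which direct vesicles to their targets, had 21-mo means of 11.37 ± 0.05, 9.54 ± 0.07, 6.48 ± 0.57 and 6.06 ± 0.26 (SD, n = 2 arrays), above 2-mo means of 10.01 ± 0.11, 6.29 ± 0.02, 5.03 ± 0.07 and 4.36 ± 0.0031. None of the 4 was called against WBM. The other Rab10 probe sets moved less, with means of 11.56 and 8.87 at 21 mo, against 11.13 and 8.40 at younger ages. For Rab2a, stronger probe sets read 12.28, 10.01 and 9.38, against 11.11, 8.35 and 7.34. In Rab6a and Rab27b another probe set read 11.70 and 7.77, against 10.81 and 6.74. Nsf, the ATPase that takes fusion complexes apart (−1.98), the kinesin heavy chain Kif5b (−2.14) and the translocon subunit Sec62 (−1.08) were lower in p53 HSC than in WBM. Kif5b had other probe sets at 10.89, 10.79, 8.87 and 8.31 at 21 mo, against 10.66, 10.46, 8.16 and 7.86 at younger ages. Another Nsf probe set read 9.65, against 7.72. For Sec62, another probe set was higher at 21 mo (12.75, against 12.45), while a further probe set was lower (10.92, against 11.38).

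**Figure D4:**
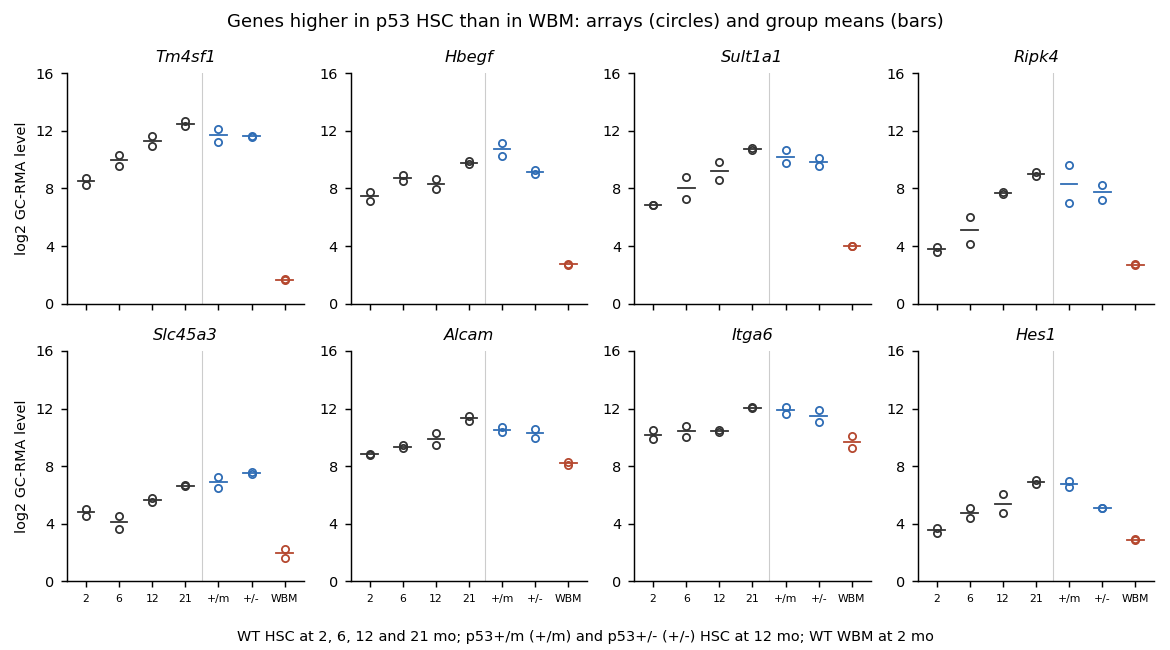
Log2 level of 8 members higher in p53 HSC than in WBM, on each array (circles) with the mean of the 2 arrays of a group (bars). WBM is below the 21-mo HSC arrays in every panel, and Tm4sf1, Ripk4 and Sult1a1 climb before 21 mo.

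Of the 29 gene lists, 11 held cell type markers, and 16 of the 110 genes were in any list. As the members are 110 of 12393 genes, nothing is read from a list that held none. Across all 12393 genes, read on the strongest probe set, 874 had both 21-mo arrays above all younger ones and 2034 had both below. Chromosomes 2, 3 and 9 held 10 members each (9.09%), against 7.80%, 5.09% and 5.53% of the genes on the array, and 8 pairs lay within 1000000 bases of each other. The closest after Ms4a4c and Ms4a4b were Mapk6 and Tmod3 on chromosome 9, 87768 bases apart, and F13a1 and Ly86 on chromosome 13, 295101 bases apart.

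The p53 genotypes gave the second contrast independent of the rule. It asks whether the genes that peak in old WT HSC differ at 12 mo between mice with augmented and with reduced p53. With limma on the same 6 arrays, 5 members were higher in p53+/m than in p53+/- HSC (Purb, Hes1, F13a1, Chil3 and Rnf11) and 1 was lower (Plekha3). Of the members 4.55% were thus higher, against 0.38% of all probe sets and 0.642% of those with a 21-mo mean of 6 or more, and 0.909% lower, against 0.402% and 0.981%. The median difference of the members was 0.29, with 81 of 110 positive, against 0.01 over all probe sets and −0.05 over those of that 21-mo level. At an unadjusted p under 0.05 and 2-fold, 18 were higher and 2 lower. The share of all probe sets at this looser threshold was not computed, so no excess is read from these counts. The 6 calls lie close to the threshold, and 0 were left in a fit on the 4 p53 arrays alone or with the replicate block.

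Purb, a protein that binds purine-rich single-stranded DNA and RNA, read 10.57 and 10.96 in p53+/m HSC, and 8.61 and 8.74 in p53+/- HSC, a difference of 2.09 (SE 0.16, adjusted p = 0.0382). In WT HSC Purb read 8.12 and 8.12 at 2 mo, 8.27 and 8.80 at 6 mo, 9.31 and 8.63 at 12 mo, and 10.91 and 10.74 at 21 mo, so its p53+/m arrays were near the 21-mo WT level and its p53+/- arrays within the younger range. Hes1 read 7.01 and 6.54 in p53+/m HSC, and 5.13 and 5.08 in p53+/- HSC (1.67, SE 0.17, adjusted p = 0.0491), and its p53+/m arrays, too, were above all younger WT arrays. F13a1 read 4.60 and 4.87 in p53+/m HSC, and 3.34 and 3.54 in p53+/- HSC (1.29, SE 0.12, adjusted p = 0.0471), with the p53+/m arrays above all younger WT arrays and below 5, where signal is weak. Chil3 read 5.42 and 5.50 in p53+/m HSC, and 4.08 and 4.38 in p53+/- HSC (1.23, SE 0.11, adjusted p = 0.0444), all within the range of the younger WT arrays. Rnf11, a RING finger protein of ubiquitin pathways, read 10.39 and 10.61 in p53+/m HSC, and 9.30 and 9.29 in p53+/- HSC (1.20, SE 0.08, adjusted p = 0.0336), and WT HSC read 8.20 and 8.85 at 2 mo, 9.12 and 9.08 at 6 mo, 9.02 and 8.48 at 12 mo, and 10.47 and 9.97 at 21 mo. Plekha3, which binds a Golgi phosphoinositide, read 5.03 and 4.89 in p53+/m HSC, and 6.01 and 6.29 in p53+/- HSC (−1.19, SE 0.11, adjusted p = 0.0471), and its p53+/m arrays were at the level of 2 mo B (4.91). Over all settings run, the differences of these 6 genes kept their sign, and the adjusted p ranged up to 0.838 (Chil3, fit on all 14 arrays).

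**Figure D5:**
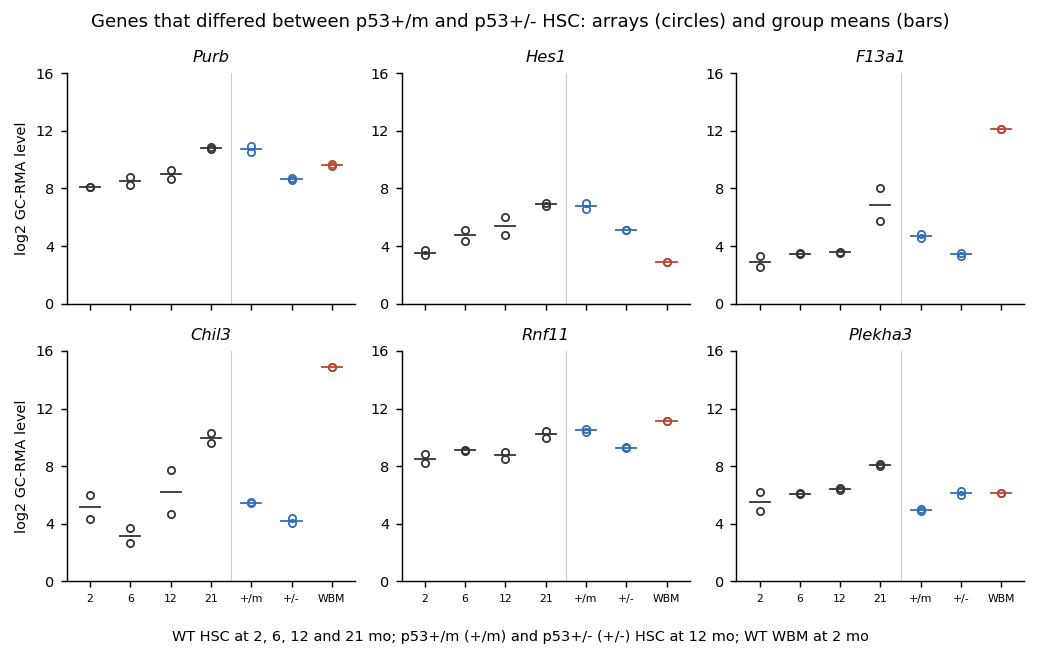
Log2 level of the 6 members that differed between p53+/m and p53+/- HSC, on each array (circles) with the mean of the 2 arrays of a group (bars). Both p53+/m arrays lie above both p53+/- arrays in all but Plekha3, and in Purb they reach 10.57 and 10.96, beside 10.91 and 10.74 in WT HSC at 21 mo.

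Set against WT HSC, whose arrays made the rule, the p53 levels are a description. Both p53+/m arrays were above all 6 younger WT arrays for 22 members (20.0%), against 5.14% of all probe sets and 8.2% of those with a 21-mo mean of 6 or more. For p53+/- HSC this held for 14 members (12.7%), against 3.63% and 6.67%. Without 12 mo A it held for 42 and 23 members. Both genotypes met it for 7 genes: Klf6, Zfp445, Atp6v1a, Itga6, Rnf11, Slc45a3 and Hbegf. The lower 21-mo array was reached by both p53+/m arrays for 5 genes, Hbegf, Rnf11, Atp6v1a, Rora and Lpgat1, and by both p53+/- arrays for Slc45a3 alone. Both arrays stayed below it for 97 members in p53+/m HSC and 106 in p53+/- HSC. The median difference from the WT mean at 12 mo was 0.38 in p53+/m HSC and −0.07 in p53+/- HSC. The 18S control read 5.71 and 7.18 in p53+/m HSC and 8.92 and 7.96 in p53+/- HSC, and its part in the genotype differences was not tested.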

How the data were processed

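RNA of HSC and WBM was measured on Affymetrix MOE430A arrays, 2 in each of 7 groups. The authors computed GC-RMA values, which correct background by probe GC content and normalize between arrays, and the deposited values are on the log2 scale, 1 per probe set. Neither the version nor a common run of all arrays is stated in the sources used here. The values were used as deposited, without a filter. Precision is limited by the number of arrays. Gene symbols were taken from the platform table: of 22626 apart from 64 controls, 20380 carry 1 symbol, 691 several and 1555 none.

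The rule was applied to the 8 WT HSC arrays. Group means were compared by limma's moderated test (version 3.58.1, R 4.3.3) on the 6 arrays that the rule did not use, with Benjamini-Hochberg adjustment over all 22626 probe sets and calls at an adjusted p under 0.05 and 2-fold. The fit was tested on simulated data. The letters A and B did not pair the arrays. Members and gene lists were chosen with earlier results of these data known. Genes were named by rule: the 15 largest gaps, every call between p53 genotypes, the 5 largest calls per direction against WBM, up to 6 members per list, and the 3 genes on each side of the gap threshold; others are said to be named after their values were seen. For the lists, each gene was represented by its strongest probe set on the WT HSC arrays, and marker sums are the log2 of summed linear values. Promoter windows and coordinates come from RefSeq on GRCm38.p6.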

Additional observations from a re-analysis of the deposited data

How the results depend on the processing

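The number of genes that met the rule was 110. It was 233 with a gap of 0.5 and 56 with a gap of 1, and 809 without both WT 12-mo arrays, which was added after seeing the data. Leaving out 1 WT HSC array gave 112 to 698 genes, the most without 12 mo A, and 247 and 232 without 21 mo A and 21 mo B. The level at 21 mo, quantile normalization, median centring and probe sets without a suffix letter gave 78 to 137 genes, and quantile normalization kept 104 of the 110. In settings chosen after seeing the data, without 12 mo A both p53+/m arrays were above the younger WT arrays for 42 members in place of 22, and both p53+/- arrays for 23 in place of 14, against 8.24% and 7.95% of all probe sets. The members at least 1 above 2 mo at 12 mo numbered 22 to 58 when 1 of the 12-mo arrays was left out, in place of 40.

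The genotype calls, 5 members higher and 1 lower in p53+/m than in p53+/- HSC, changed to 3 and 0 in a fit on all 14 arrays, 0 and 0 on the 4 p53 arrays alone, 0 and 0 with the replicate block, 2 and 0 with quantile normalization, 13 and 1 with a filter on low values, and 1 and 0 with an intensity trend in the prior variance. Without 1 of the p53 arrays they numbered 1 to 5 and 0 to 2, the fewest without p53+/m B (1 and 0), with the lone array assumed to vary like the other groups. The letters did not pair the arrays: the A minus B differences of the groups correlated at −0.0453, −0.0377 and −0.0639 over probe sets. The filter leaves 102 members to test. Other causes were not tested. Of the 6 genes called over 10 settings, 41 of 60 results missed the threshold and none turned sign.

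Against WBM, 43 members lower and 14 higher became 37 and 14 with the replicate block. The other settings gave 39 to 49 and 14 to 16, and leaving out 1 array gave 30 to 45 and 12 to 16. For the 10 genes named from this contrast, 108 of 110 results stayed past the threshold; the exceptions were Ripk4 without 1 array (adjusted p up to 0.0913).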
